A study of Arabidopsis thaliana with 8 samples.

Results

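In seedlings of the Arabidopsis thaliana mutant npr1-1, 125 genes were at least 1 log2 unit higher on the arrays labelled salicylic acid (SA) than on those labelled water, while the same genes differed by no more than 0.4 between SA and water in wild-type Col-0. They were selected out of 13356 genes on exactly these group means, with 1 probe set per gene (1 gene in the platform annotation, the brightest over the 8 arrays) and with 3 genes excluded by name, of which 1 met both thresholds. The differences used for the selection are therefore given below as a description and carry no test. The measure tested is the difference between npr1-1 and Col-0 averaged over SA and water, which is the same whichever npr1-1 arrays are called SA. It is another contrast of the same 8 arrays, and for genes near the bottom of the scale its direction is tied to the selection.

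SA is the hormone of defense against biotrophic pathogens, and NPR1 is the coactivator through which much of the transcriptional response to it runs. In resting cells NPR1 is held mainly in the cytoplasm as oligomers, and SA shifts it to monomers that enter the nucleus and act with TGA factors on the promoters of defense genes. The npr1-1 allele is a point mutation in NPR1 that weakens this response. A gene that answers to the treatment in the mutant and stays level in the wild type is thus the opposite of a classical NPR1 target.

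RNA from whole seedlings was hybridised to Affymetrix ATH1 arrays, on which a set of short probes reads the transcript of a gene. The 4 groups were npr1-1 with SA, npr1-1 with water, Col-0 with SA and Col-0 with water, each with 2 biological replicates. All seedlings were 2 weeks old and were kept for 24 h in 2 mM SA or in water. Values are log2 units as deposited by the authors, so a difference of 1 is a doubling. Levels of different probe sets are not compared, and in whole seedlings fewer cells of a type and less RNA per cell cannot be told apart. The number of arrays limits the precision.

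One property of the npr1-1 arrays bears on every direction given here. Over 22746 probe sets, the SA minus water difference in npr1-1 correlated negatively with that in Col-0 (Pearson r = -0.50 across probe sets, which are not independent replicates). Of the genes of SA signaling measured, UGT76B1, a glucosyltransferase of the immune signal isoleucic acid and of SA, had 3.01 and 2.92 on the arrays labelled npr1-1 SA, against 8.88 and 8.92 on those labelled npr1-1 water. In Col-0 it had 9.57 and 9.75 with SA, against 4.71 and 4.87 with water. The glutaredoxin GRX480, an SA-induced partner of TGA factors, had 3.06 and 3.05 on the arrays labelled npr1-1 SA and 7.85 and 7.97 on those labelled npr1-1 water. In Col-0 it had 8.02 and 7.93 with SA and 6.87 and 6.67 with water. The third measured gene of that list, SAG101, a lipase-like partner in defense signaling, did not run in opposite directions, with 3.23 and 3.31 on the arrays labelled npr1-1 SA and 3.62 and 3.25 on those labelled npr1-1 water. In Col-0 it had 3.19 and 3.25 with SA and 4.28 and 4.34 with water. Every npr1-1 array is given here under its label. If the 2 labels of that genotype were exchanged, the npr1-1 differences of the 125 genes would be negative. The same thresholds would then choose the 186 genes of the reverse selection given below in their place. The 2 replicates of a group correlated at 0.994 to 0.996 (Pearson r), while 2 arrays from separate groups correlated at 0.922 to 0.966. The lowest of these were npr1-1 SA against Col-0 SA, by label, at 0.922 to 0.925, and every other pair of groups was at 0.955 or above. The median over all probe sets was 1.48 and 1.46 on the npr1-1 SA arrays, 1.43 and 1.45 on the npr1-1 water arrays, 1.35 and 1.34 on the Col-0 SA arrays and 1.38 on both Col-0 water arrays.

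The selected genes split by where npr1-1 stood relative to Col-0. Over both treatments, 85 of the 125 genes (68.0%) were called higher in npr1-1, 26 (20.8%) were called lower and 14 were not called (limma, adjusted p under 0.05). Over all 13356 genes, 19.7% were called higher and 14.1% lower. The median difference of the selected genes was 0.68, beside 0.00455 over all genes. Since the npr1-1 arrays on which a weak gene passed the selection also enter this difference, these shares are a description of the group and not evidence about it. In the genes called higher the npr1-1 SA arrays stood above Col-0, and in those called lower the npr1-1 water arrays stood below it.

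**Figure D1:**
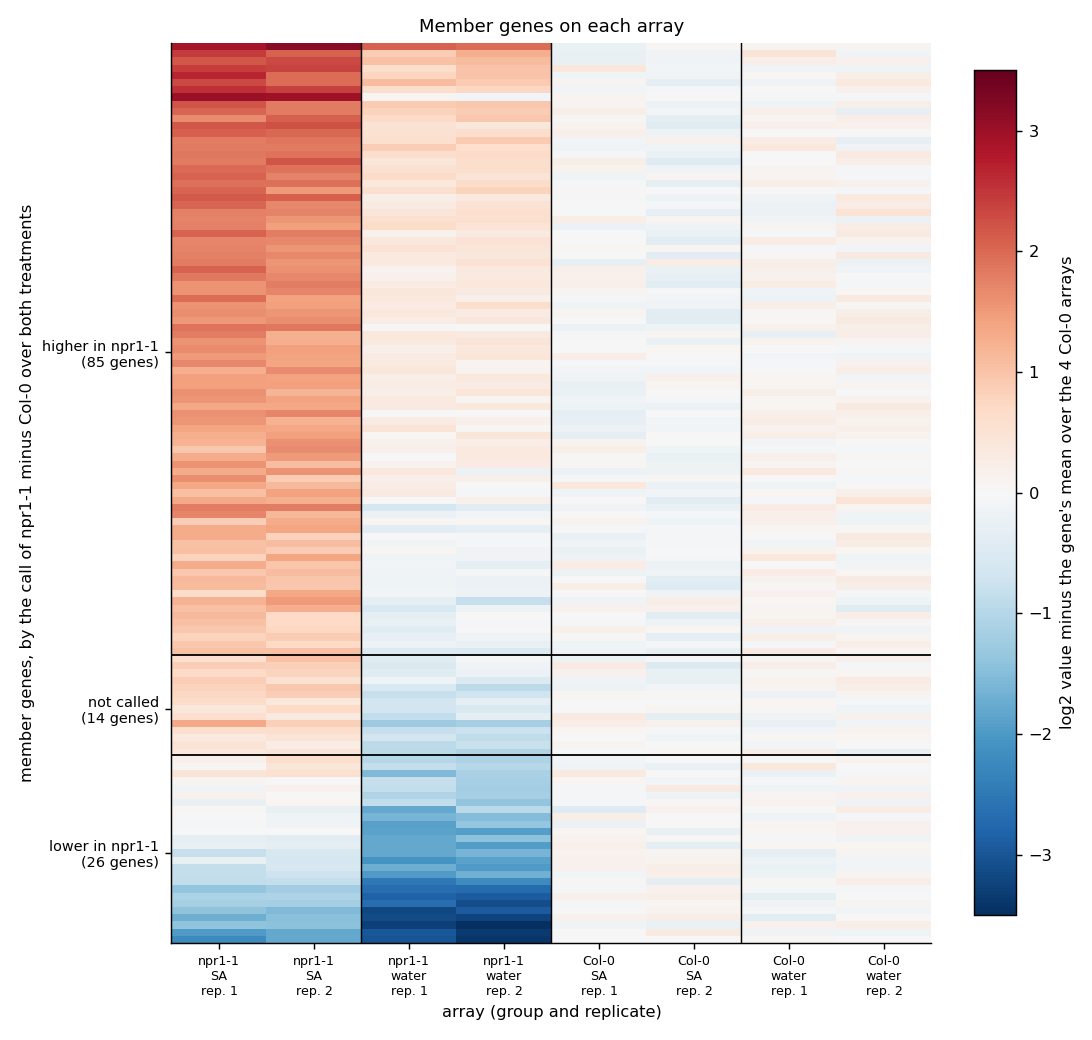
Each row is one of the 125 selected genes and each column one of the 8 arrays; the colour gives the log2 value minus the mean of that gene over the 4 Col-0 arrays. In the 85 genes called higher in npr1-1 the npr1-1 SA arrays lie above Col-0, with the npr1-1 water arrays above it as well in 41, and in the 26 genes called lower the npr1-1 water arrays lie below Col-0.

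All 85 genes called higher had both npr1-1 SA arrays above all 4 Col-0 arrays, and 41 of them had both npr1-1 water arrays above Col-0 as well. All 26 genes called lower had both npr1-1 water arrays below all 4 Col-0 arrays, and 14 of them also had both npr1-1 SA arrays below Col-0. Over all genes, the npr1-1 SA arrays were above the Col-0 arrays in 22.2% and below them in 18.4%, and the npr1-1 water arrays were above in 18.7% and below in 14.7%. The selection used these arrays, so the counts describe the shape of the group and support nothing about it. Among the 14 genes not called, 9 had their npr1-1 SA arrays above and their npr1-1 water arrays below Col-0.

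The median over the 125 genes was 3.48 and 3.47 on the npr1-1 SA arrays and 2.04 and 2.07 on the npr1-1 water arrays, against 2.28 and 2.17 on the Col-0 SA arrays and 2.31 on both Col-0 water arrays. The median over all genes was between 1.06 and 1.14 on every array. On these medians the npr1-1 water arrays and the Col-0 arrays lay close together, with the npr1-1 SA arrays apart. This did not hold gene by gene. The npr1-1 water arrays stood above all Col-0 arrays in 41 genes. They stood below all of them in 16 genes with npr1-1 SA above Col-0, 14 with npr1-1 SA below and 10 with npr1-1 SA overlapping. All 26 genes called lower were among these. In the 85 genes called higher the medians were 3.27 and 3.32 with npr1-1 SA, 2.00 and 1.96 with npr1-1 water, 1.71 and 1.61 with Col-0 SA and 1.78 on both Col-0 water arrays. In the 26 genes called lower they were 4.86 and 4.63 with npr1-1 SA, 3.14 and 3.09 with npr1-1 water, 5.05 and 5.11 with Col-0 SA and 4.98 and 5.07 with Col-0 water. The 2 arrays of a group differed by a median of 0.19 for these genes with npr1-1 SA, 0.17 with npr1-1 water, 0.15 with Col-0 SA and 0.16 with Col-0 water.

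The level of a gene moved with its call. Of the 40 selected genes with a mean under 2 over the 8 arrays, 35 (87.5%) were called higher in npr1-1 and 1 was called lower. Of the 39 genes with a mean from 2 to under 3, 27 (69.2%) were called higher and 8 lower. Of the 46 genes with a mean of at least 3, 23 (50.0%) were called higher and 17 (37.0%) lower. Over all genes the shares called higher and lower were 10.1% and 6.45% under 2, 34.4% and 30.1% at 3 or above, and 535 and 251 of the 1382 genes from 2 to under 3. A gene near the bottom of the scale in Col-0 can meet the npr1-1 threshold only by lying above Col-0 in one npr1-1 group, so for weak genes the direction over both treatments is tied to the selection. The reverse selection, an npr1-1 difference of -1 or less with the same window in Col-0, found 186 genes, of which 59 (31.7%) were called higher and 69 (37.1%) lower. Of its 31 genes with a mean under 2, 19 (61.3%) were called higher and none lower, and of its 120 genes at 3 or above, 25 (20.8%) were called higher and 62 (51.7%) lower.

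**Figure D2:**
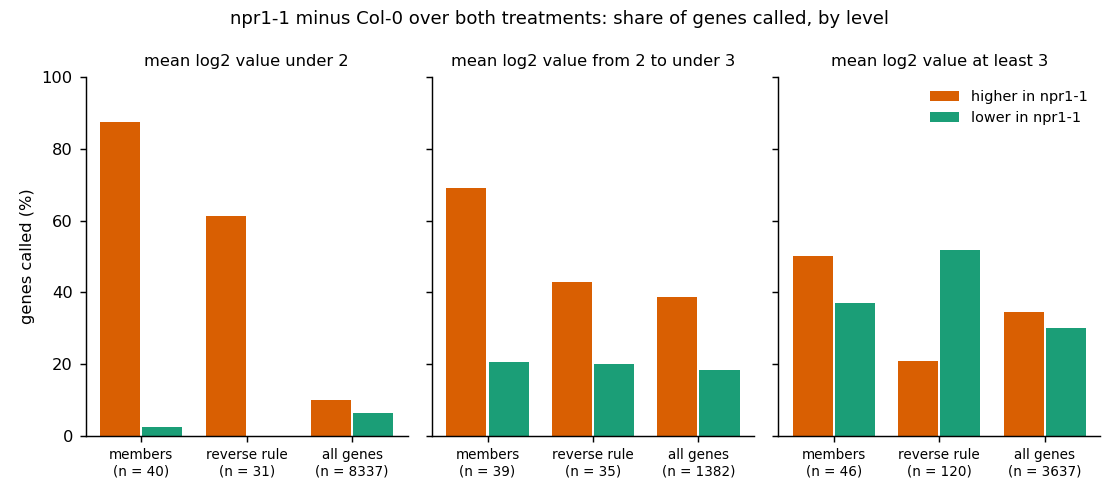
The bars give the percentage of genes called higher and lower in npr1-1 over both treatments, for the selected genes, for the genes of the reverse selection and for all genes, in 3 ranges of the mean log2 value over the 8 arrays. Among the weakest genes both selections lean to higher (87.5% and 61.3%); at 3 or above the selected genes have 50.0% higher and 37.0% lower, and the genes of the reverse selection have 20.8% higher and 51.7% lower.

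The largest npr1-1 difference was that of AT2G40010. Its values were 4.37 and 4.33 with npr1-1 SA and 1.46 and 1.26 with npr1-1 water, against 1.45 and 1.36 with Col-0 SA and 1.31 and 1.32 with Col-0 water. Only the npr1-1 SA arrays stood apart, by 2.99 from npr1-1 water, or 7.92-fold, and the Col-0 difference was 0.09. Over both treatments the gene was 1.49 ± 0.09 higher in npr1-1 (standard error of the fit, adjusted p = 1.27e-07). By label, npr1-1 minus Col-0 was 2.95 under SA and 0.04 in water. The average thus rests on the npr1-1 SA arrays that the selection used, and its p is no separate support. AT3G25940 had 3.79 and 3.64 with npr1-1 SA, 1.85 and 1.97 with npr1-1 water, 1.13 and 1.19 with Col-0 SA and 1.25 and 1.39 with Col-0 water. Here both npr1-1 groups lay above all Col-0 arrays, and the genotype difference was 1.57 ± 0.09 (adjusted p = 9.61e-08).

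AT2G41950 and AT3G12860 repeated the form of AT2G40010. AT2G41950 had 4.24 and 4.17 with npr1-1 SA and 2.30 and 2.43 with npr1-1 water, against 2.02 and 1.91 with Col-0 SA and 1.97 and 2.43 with Col-0 water. AT3G12860 had 3.05 and 2.99 with npr1-1 SA and 1.2 and 1.17 with npr1-1 water, against 0.94 and 1.01 with Col-0 SA and 1.31 and 1.36 with Col-0 water. Their genotype differences were 1.2 ± 0.11 (adjusted p = 3.79e-06) and 0.95 ± 0.08 (adjusted p = 2.39e-06). These too rest on the npr1-1 SA arrays used by the selection. By label, npr1-1 minus Col-0 was 2.24 and 2.04 under SA, but 0.16 and -0.15 in water.

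In other genes of large npr1-1 difference, the wild-type level lay between the 2 npr1-1 groups. AT1G74940 had 4.89 and 4.88 with npr1-1 SA and 2.48 and 2.72 with npr1-1 water, against 2.96 and 2.86 with Col-0 SA and 3.37 and 3.18 with Col-0 water. AT5G25280 had 6.41 and 6.68 with npr1-1 SA and 4.88 and 4.39 with npr1-1 water, against 5.05 and 5.41 with Col-0 SA and 5.25 and 5.05 with Col-0 water. Both were called higher over both treatments, by 0.65 ± 0.09 (adjusted p = 1.38e-04) and 0.40 ± 0.13 (adjusted p = 0.0284), although their npr1-1 water arrays lay below every Col-0 array. The call of AT5G25280 was lost without each of 4 single arrays. AT4G33960 had 4.09 and 3.60 with npr1-1 SA and 1.5 and 1.61 with npr1-1 water, against 2.99 and 2.91 with Col-0 SA and 2.51 and 2.67 with Col-0 water. Its 2 npr1-1 groups lay on either side of Col-0, and its genotype difference of -0.07 ± 0.11 did not pass the test (adjusted p = 0.694). AT1G20180, with 3.08 and 3.14 with npr1-1 SA and 1.08 and 1.48 with npr1-1 water, against 2.92 and 2.60 with Col-0 SA and 2.40 and 2.55 with Col-0 water, was called lower by -0.42 ± 0.11 (adjusted p = 0.0105). For AT1G62760 the npr1-1 SA arrays overlapped Col-0 and only npr1-1 water fell short. It had 3.14 and 3.18 with npr1-1 SA and 1.28 and 1.23 with npr1-1 water, against 3.22 and 2.90 with Col-0 SA and 3.23 and 3.31 with Col-0 water. The genotype difference was -0.95 ± 0.09 (adjusted p = 7.13e-06). Of the 10 genes with the largest npr1-1 difference, 6 were called higher over both treatments, 3 lower and 1 was not called.

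**Figure D3:**
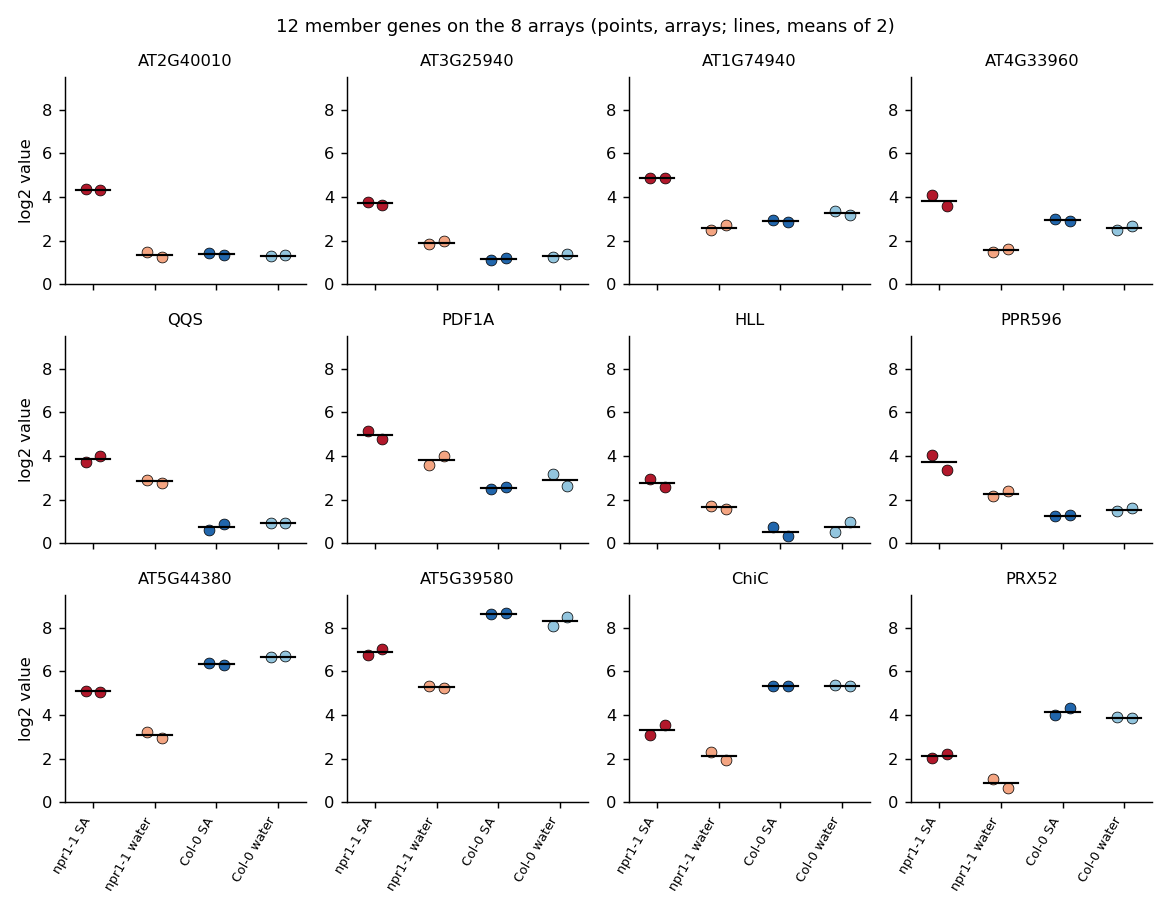
Log2 values of 12 selected genes on the 8 arrays, with a point for each array and a line at the mean of the 2 arrays of a group. The top row holds genes of large npr1-1 difference, the middle row genes higher in npr1-1 in both treatments, such as QQS, and the bottom row genes lower in npr1-1 in both treatments, such as ChiC and PRX52.

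Of the 125 genes, 17 carried a name beyond their locus in the gene table, and 14 of these were called higher in npr1-1 and 3 lower. The other 108 are given by locus, and 1 of them, AT1G43590, is annotated as a pseudogene. The named genes that follow were in part chosen after their values were seen, and their roles are background. QQS (QUA-QUINE STARCH), a small protein of Arabidopsis that acts on the partition of carbon between starch and protein, had the largest genotype difference of the group upwards. It had 3.72 and 4.00 with npr1-1 SA and 2.90 and 2.79 with npr1-1 water, against 0.59 and 0.88 with Col-0 SA and 0.91 and 0.93 with Col-0 water. All 4 npr1-1 arrays lay above all 4 Col-0 arrays, and the difference of 2.52 ± 0.10, or 5.75-fold, was called (adjusted p = 1.42e-08).

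PDF1A, a peptide deformylase that removes the formyl group from newly made organellar proteins, had 5.16 and 4.79 with npr1-1 SA and 3.59 and 4.00 with npr1-1 water, against 2.47 and 2.59 with Col-0 SA and 3.18 and 2.63 with Col-0 water. Its genotype difference was 1.67 ± 0.14 (adjusted p = 2.51e-06). The other measured deformylase, PDF1B, was not selected and was called higher by 0.45 (adjusted p = 0.00299). Its SA minus water difference was 1.32 in npr1-1 but -1.21 in Col-0, outside the window, so the 2 genes did not share a form. PPR596, of the pentatricopeptide repeat proteins, which bind organellar RNA, had 4.07 and 3.36 with npr1-1 SA and 2.17 and 2.40 with npr1-1 water, against 1.25 and 1.29 with Col-0 SA and 1.46 and 1.62 with Col-0 water. The gap of 0.71 between its npr1-1 SA arrays was wide for the group, yet both lay above every other array, and the genotype difference was 1.59 ± 0.14 (adjusted p = 3.05e-06). For PPR336, the other gene of that name measured, the difference of 0.28 did not pass the test (adjusted p = 0.0765). HLL (HUELLENLOS), a mitochondrial ribosomal protein required for ovule growth, had 2.97 and 2.59 with npr1-1 SA and 1.73 and 1.57 with npr1-1 water, against 0.73 and 0.33 with Col-0 SA and 0.52 and 0.99 with Col-0 water. It was 1.57 ± 0.14 higher in npr1-1 (adjusted p = 2.90e-06).

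PAC (PALE CRESS), needed for chloroplast development, had 3.14 and 2.59 with npr1-1 SA and 1.53 and 1.35 with npr1-1 water, against 1.13 and 1.07 with Col-0 SA and 1.01 and 1.48 with Col-0 water. Its genotype difference was 0.98 ± 0.14 (adjusted p = 1.25e-04). AT4G38100, whose synonym CURT1D places it among the proteins that bend thylakoid membranes, had 5.59 and 5.62 with npr1-1 SA and 4.43 and 4.47 with npr1-1 water, against 3.91 and 4.26 with Col-0 SA and 4.25 and 4.27 with Col-0 water. It was 0.86 ± 0.09 higher in npr1-1 (adjusted p = 1.85e-05). MRL7-L was higher by 0.75 (adjusted p = 6.69e-04) and CCB3, which takes part in attaching a heme to the cytochrome b6f complex, by 0.46 (adjusted p = 0.00107). These 2 genes stood near Col-0 with npr1-1 water (1.91 and 1.33 for MRL7-L, against 1.89 and 1.58 in Col-0 water) and above it with npr1-1 SA. None of the 8 genes of the photosynthesis list that were measured was selected. All 8 were called higher in npr1-1 over both treatments, beside 19.7% of all genes. By label, each was below Col-0 in water (from -0.08 to -0.81) and above it under SA (from 0.87 to 1.89). Their SA minus water median was 0.53 in npr1-1 and -1.22 in Col-0, outside the window of the selection.

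NRPA1, the largest subunit of RNA polymerase I, which transcribes ribosomal RNA, had 2.35 and 2.18 with npr1-1 SA and 1.07 and 1.02 with npr1-1 water, against 1.21 and 0.82 with Col-0 SA and 1.33 and 1.49 with Col-0 water. It was 0.44 ± 0.10 higher in npr1-1 (adjusted p = 0.00514), and its Col-0 difference of -0.40 was the closest of the group to the lower bound. Subunits of nuclear RNA polymerases were matched by an NRP symbol, which can miss subunits given by locus. Of the 11 others so matched and measured, 9 were called higher in npr1-1, none lower and 2 were not called. Over all genes, 19.7% were called higher and 14.1% lower. The npr1-1 SA minus water differences of these 11 genes lay between -0.56 and 0.91, with a median of -0.04. Among the genes with an NRP symbol, only NRPA1 met the selection. TRM82, named after the yeast partner of a tRNA methyltransferase, had 2.92 and 2.18 with npr1-1 SA and 1.46 and 1.47 with npr1-1 water, against 1.26 and 1.35 with Col-0 SA and 1.31 and 1.26 with Col-0 water, a genotype difference of 0.71 ± 0.14 (adjusted p = 0.00128). A match by symbol alone, which need not mean a shared function, gave 14 other measured genes with a TRM symbol. Of these, 2 were called higher, 1 lower and 11 were not called. RBL (REBELOTE), which acts in the termination of floral meristems, was higher by 0.68 (adjusted p = 3.82e-04). The remaining named genes called higher were P1R1 (0.86), 2A6 (0.68) and AOP1 (0.49).

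The 3 named genes called lower were ChiC, PRX52 and CYP71B26. ChiC, a class V chitinase that degrades the chitin of fungal cell walls, had 3.1 and 3.56 with npr1-1 SA and 2.31 and 1.92 with npr1-1 water, against 5.31 and 5.34 with Col-0 SA and 5.37 and 5.31 with Col-0 water. The Col-0 arrays spanned less than 0.1 and all npr1-1 arrays lay below them. The genotype difference was -2.61 ± 0.12, or 6.12-fold higher in Col-0 (adjusted p = 2.82e-08), the furthest from 0 of the whole group. The chitinase CHI, which was not selected, was also called lower in npr1-1 (-2.29), but its SA minus water difference was -1.53 in npr1-1 and 2.03 in Col-0.

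PRX52, a secreted peroxidase of the kind that oxidises cell wall phenolics, had 2.03 and 2.22 with npr1-1 SA and 1.06 and 0.66 with npr1-1 water, against 3.99 and 4.32 with Col-0 SA and 3.90 and 3.86 with Col-0 water. Its genotype difference was -2.53 ± 0.11 (adjusted p = 2.60e-08). Of the 9 other genes with a peroxidase name measured, 2 were called higher and 2 lower, and their genotype differences ran from -2.81 to 0.81. This match by name mixes kinds of peroxidase and can miss peroxidases given here by locus. It does not show whether PRX52 was the only peroxidase selected. CYP71B26, a cytochrome P450, had 4.88 and 4.52 with npr1-1 SA and 3.03 and 3.27 with npr1-1 water, against 5.28 and 5.25 with Col-0 SA and 4.95 and 5.05 with Col-0 water, a difference of -1.21 ± 0.10 (adjusted p = 2.47e-06). Of the 25 other measured genes matched by a CYP symbol, which is not limited to cytochrome P450 genes, 3 were called higher and 8 lower. Over all genes, 19.7% were called higher and 14.1% lower, to be set beside both of these counts.

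Large genotype differences downwards were also found in genes known by locus. AT5G44380 had 5.10 and 5.07 with npr1-1 SA and 3.24 and 2.92 with npr1-1 water, against 6.37 and 6.27 with Col-0 SA and 6.65 and 6.72 with Col-0 water. AT5G39580 had 6.76 and 7.02 with npr1-1 SA and 5.35 and 5.22 with npr1-1 water, against 8.63 and 8.68 with Col-0 SA and 8.09 and 8.49 with Col-0 water. AT2G36690 had 3.78 and 3.65 with npr1-1 SA and 2.00 and 2.26 with npr1-1 water, against 5.20 and 5.29 with Col-0 SA and 5.14 and 5.09 with Col-0 water. In each of the 3 genes the npr1-1 SA arrays came closer to Col-0 than the npr1-1 water arrays did and still lay below it, with genotype differences of -2.42 ± 0.09 (adjusted p = 1.14e-08), -2.38 ± 0.11 (adjusted p = 2.82e-08) and -2.26 ± 0.09 (adjusted p = 1.58e-08). Upwards, AT3G45160 differed by 1.65 ± 0.09 (adjusted p = 6.24e-08) and AT3G61100 by 1.60 ± 0.12 (adjusted p = 1.10e-06). AT3G45160 had 2.46 and 2.60 with npr1-1 SA and 1.30 and 1.39 with npr1-1 water, and was near the bottom of the scale in Col-0, with 0.02 and 0.15 with SA and 0.52 and 0.44 with water. AT3G61100 had 4.32 and 4.27 with npr1-1 SA and 2.53 and 2.90 with npr1-1 water, against 2.29 and 1.80 with Col-0 SA and 1.77 and 1.76 with Col-0 water.

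**Figure D4:**
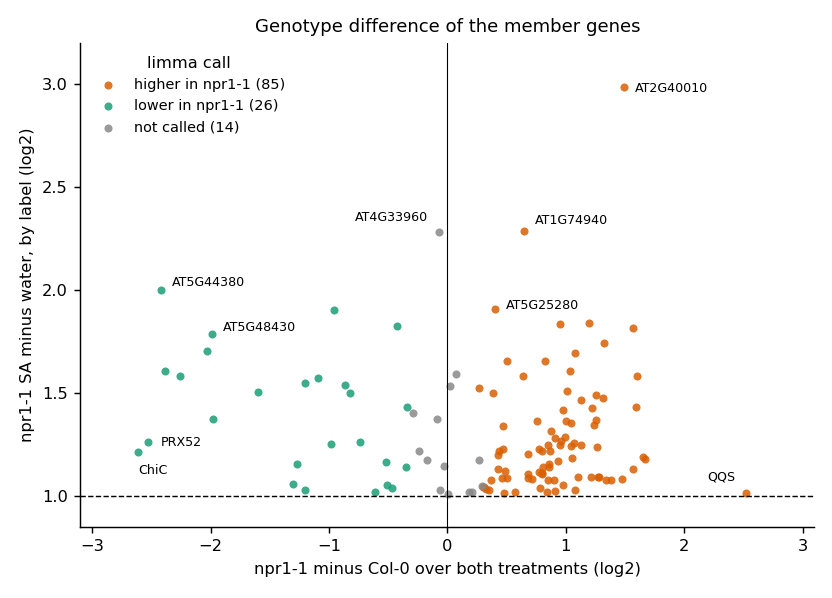
Each point is one of the 125 selected genes, with npr1-1 minus Col-0 over both treatments on the x axis and npr1-1 SA minus water by label on the y axis, both in log2 units; the dashed line is the selection threshold of 1 and colours give the call. The 85 genes called higher reach 2.52 (QQS) and the 26 called lower reach -2.61 (ChiC), while AT2G40010 has the largest npr1-1 difference (2.99).

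The npr1-1 differences used for the selection ran from 1.01 to 2.99 with a median of 1.22. Only 4 genes reached 2 and 30 reached 1.5, while 57 were under 1.2, so a large part of the group lay close to the threshold. In all 125 genes both npr1-1 SA arrays lay above both npr1-1 water arrays. The Col-0 differences had a median of -0.13 and were below 0 in 85 genes and above 0 in 40. Among all 10376 genes within the Col-0 window, 41.0% were below 0. The pair of genes closest above the npr1-1 threshold was AT4G18425 (1.008) and AT4G00750 (1.013), and the pair closest below it AT1G78180 (0.9995) and AT3G23620 (0.9990). At the upper Col-0 bound, AT5G48430 (0.372) and AT4G33960 (0.365) lay inside, and AT5G64110 (0.4001) and AT5G26270 (0.416) outside. At the lower bound, NRPA1 (-0.3975) and AT1G25260 (-0.3974) lay inside, and AT1G28395 (-0.4001) and AT2G29360 (-0.4016) outside.

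To read a selection of the same form on arrays it had not used, both thresholds were applied to the 4 arrays numbered 1 and the chosen genes were read on the 4 arrays numbered 2, and the reverse. Of 151 genes chosen on the arrays numbered 1 (87 of them among the 125), 149 had a positive npr1-1 difference on the arrays numbered 2, and 82 were again at 1 or above. The shares of all genes there were 46.7% and 4.16%. Of 131 genes chosen on the arrays numbered 2 (73 of them among the 125), 130 were positive and 70 were at 1 or above on the arrays numbered 1, beside 55.6% and 3.93% of all genes. The median npr1-1 difference was 1.05 where read and 1.27 where chosen in the first case, and 1.06 and 1.24 in the second. The Col-0 difference was again within 0.4 of 0 in 90 of the 151 genes and in 81 of the 131, with medians of -0.27 and -0.17. Both thresholds were met again by 42 genes in each case. On group means, 10376 of all 13356 genes lay within the Col-0 window. The share of all genes on arrays of 1 number was not computed. The counts therefore do not show that the chosen genes were level in Col-0 more often than other genes. These splits use the same 8 arrays as the selection of the 125 genes and are given as values with no test.

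Members of the group lay together on the chromosomes in 2 instances. AT2G28710 and AT2G28720 are neighbours with no protein-coding gene between them. AT2G28710 had 2.77 and 2.78 with npr1-1 SA and 1.11 and 1.43 with npr1-1 water, against 3.65 and 3.3 with Col-0 SA and 3.66 and 3.85 with Col-0 water. AT2G28720 had 3.48 and 3.40 with npr1-1 SA and 1.95 and 1.79 with npr1-1 water, against 3.93 and 3.44 with Col-0 SA and 3.82 and 3.81 with Col-0 water. Both were called lower over both treatments, by -1.60 ± 0.11 (adjusted p = 5.28e-07) and -1.09 ± 0.11 (adjusted p = 9.81e-06). AT5G65860 and AT5G65880, separated by 1 protein-coding gene, were both called higher, by 1.34 ± 0.12 and 1.39 ± 0.12 (adjusted p = 4.56e-06 and 2.78e-06). The median gene length, taken from the gene table, was 1797 bp for the selected genes, 2105 bp over the 13286 measured genes with a length and 2273 bp for the reverse selection.

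A second probe set of their own was present for 5 of the selected genes. That of AT1G79150 gave 1.01 for the npr1-1 difference and 0.13 for Col-0, and was higher in npr1-1 over both treatments (0.68, adjusted p = 4.09e-04). That of AT2G30600 gave 1.41 for npr1-1 but -1.20 for Col-0, outside the window. The second probe sets of 2A6, AT1G62760 and AT5G04310 gave -0.49, -0.28 and 0.03 for npr1-1, and their means over the 8 arrays were 1.15, 0.31 and 0.62.

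Genes of known defense, hormone and stress pathways and tissue markers were looked up on 22 lists, of whose genes 41 could be measured by a probe set of their own (33 on pathway lists and 8 among tissue markers). None of the 41 was selected, beside 0.936% of all genes. The 3 measured genes of SA signaling (UGT76B1, GRX480 and SAG101) were all called lower in npr1-1 over both treatments, beside 14.1% of all genes. The list median was -1.29, beside 0.00455 over all genes. This average joins differences of opposite sign. By label, npr1-1 minus Col-0 was 4.11 in water and -6.70 under SA for UGT76B1. It was 1.14 and -4.92 for GRX480, and -0.88 and 0.05 for SAG101. The 3 measured jasmonate genes were not called. Their mean lay between 0.32 and 0.45 on every array, near the bottom of the scale, so this does not show that they were unchanged. Of the measured tissue markers, 1 vasculature gene was called higher and the root (2), epidermis and guard cell (3) and flower and pollen (2) markers were not called. The mean of the root markers ran from 0.60 to 0.83 on the npr1-1 SA arrays, from 0.62 to 0.72 on the npr1-1 water arrays, from 0.51 to 0.77 on the Col-0 SA arrays and from 0.77 to 0.85 on the Col-0 water arrays. The mean of the flower and pollen markers ran from 0.09 to 0.73 over the 8 arrays. Both sets lay near the bottom of the scale, so the lack of a call says little about these tissues. No seed or embryo marker was measured here, and the part of tissue make-up in the group was not tested.

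RNA quality was read from the signal of 3' over 5' probe sets. For actin the 3' minus 5' difference was 5.41 and 4.62 with npr1-1 SA, 4.09 and 6.07 with npr1-1 water, 5.60 and 4.40 with Col-0 SA and 4.00 and 3.32 with Col-0 water. For GAPDH the 3' minus 5' difference was 1.5 and 0.79 with npr1-1 SA, 0.76 and 1.39 with npr1-1 water, 1.46 and 0.88 with Col-0 SA and 0.69 and 0.58 with Col-0 water. In both the npr1-1 groups overlapped. For ubiquitin it was 1.87 and 1.42 with npr1-1 SA and 0.77 and 1.15 with npr1-1 water, against 1.55 and 1.38 with Col-0 SA and 0.98 and 1.08 with Col-0 water. Ubiquitin was thus higher on the SA arrays of both genotypes, and its part in the npr1-1 differences was not tested. The dap transcript, spiked in before labelling, read 5.63 and 5.21 with npr1-1 SA and 5.42 and 5.53 with npr1-1 water, against 6.90 and 6.82 with Col-0 SA and 5.26 and 5.71 with Col-0 water. The Col-0 SA arrays stood above all others for dap, and its part in the Col-0 values was not tested.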

How the data were processed

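The authors deposited 1 log2 value for each probe set and array, background-corrected, normalized and summarised over probes. GCOS and RMA in affylmGUI are given in the methods, and Affymetrix Expression Console in the processing notes of the submitters; for neither is a version given in the sources used here. Deposited values ran from -0.14 to 11.53. Control probe sets (64) were left out and 22746 were tested with no filter. Of these, 13513 had 1 gene in the platform annotation, 503 several and 8730 none listed; 13436 of the 13513 were matched to the gene table of assembly TAIR10.1 (names and neighbours only). Of 13356 genes, 146 had several probe sets and stand by the brightest.

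A linear model with 1 mean per group was fitted to all 8 arrays in limma 3.58.1 and R 4.3.3, with moderated variances (eBayes), and p was adjusted by Benjamini-Hochberg over all 22746 probe sets. The contrast tested was npr1-1 minus Col-0 over both treatments. The fit was tested on simulated data. All samples were grouped by their labels, and where the replicates were grown is not stated beyond "biological replicate".

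The selection, the 22 gene lists (302 of 305 genes with a matching name, 41 measured) and the alternatives were chosen with earlier results of these data known. The genes named were the 10 with the largest npr1-1 difference, the 5 called higher and the 5 called lower with the largest genotype difference, members on a list or in a family of at least 3, and genes beside each threshold (24 selected genes in all). To these 11 genes with a name of their own, further loci with a neighbour or a second probe set and the pseudogene were added after the values were seen. The transcripts of NPR1 and PR1 were not analysed here. The alternatives tried were quantile normalization, median centring, a block for the replicate number, omission of the dimmest 25% of probe sets, no moderation, trended and robust moderation (statmod 1.5.0), omission of 1 array at a time, the mean of all probe sets of a gene, other thresholds and a background of genes with a mean of at least 3.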

Additional observations from a re-analysis of the deposited data

How the results depend on the processing

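The number of selected genes depended on the thresholds: 234 at an npr1-1 difference of at least 0.8, 30 at 1.5, and 56 with Col-0 between -0.2 and 0.2. Other processing kept it between 118 (median centring, 110 of them among the 125) and 143 (quantile normalization, 112 among the 125), and it ran from 109 to 142 when 1 array was left out. The counts called higher and lower over both treatments ran from 65 and 19 (no moderation) to 86 and 29 over all fits. Without 1 array they ran from 75 to 83 and from 24 to 26. The median genotype difference of the selected genes was 0.62 after quantile normalization and 0.59 after median centring, which moved the median of all genes to -0.09, and ran from 0.63 to 0.70 without 1 array. Called genes common to every alternative fit were 64 higher and 19 lower. With genes of a mean of at least 3 as background, 34.4% were called higher and 30.1% lower, in place of 19.7% and 14.1%. Of the named genes, AT5G25280 lost its call after median centring (0.31, adjusted p = 0.0877), without moderation (adjusted p = 0.183) and without each of 4 single arrays (lowest 0.28, adjusted p from 0.109 to 0.122), namely Col-0 water replicate 2, Col-0 SA replicate 1, npr1-1 water replicate 1 and npr1-1 SA replicate 2. AT1G20180, NRPA1, MRL7-L, 2A6 and TRM82 lost theirs only without moderation (adjusted p from 0.0501 to 0.101).

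Samples of the same replicate number did not deviate together (correlations from -0.19 to 0.08 over pairs of groups). The labels do not say whether the numbers pair the samples, and these values cannot settle it. With the replicate number as a block, 86 genes were called higher and 26 lower, with a median of 0.68. A test on promoter sequences was not run. With 2 arrays per group, values near the bottom of the scale have the least precision relative to signal.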
